A study of Mus musculus with 4 samples.

Results

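The Platr genes (pluripotency-associated transcripts) and the Snhg genes (small nucleolar RNA host genes) are long noncoding RNA genes, and they were compared here with Gm32585, Malat1 and Neat1. Members were taken by symbol (Platr or Snhg followed by a number, plus the 3 named genes) where the gene had at least 10 reads summed over the 4 libraries. This gave 40 genes of the 45706 in the count table: 25 Platr genes, 12 Snhg genes and the 3 others. A further 5 Platr genes fell under the count minimum, with 9 reads in all for Platr8, 5 for Platr13, 4 each for Platr15 and Platr2, and 3 for Platr30. Snhg1 and Snhg10 were not analysed here. GENCODE M21 lists Platr17, Platr25 and Snhg11 as protein-coding, and they were kept because the rule goes by symbol.

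RNA came from V6.5 mouse embryonic stem cells that carried Cas9 under a doxycycline-inducible promoter and guide RNAs to KLF4 by itself or to the trio KLF2, KLF4 and KLF5. All 4 titles carry the tag TKO, while the 0 h titles add WT ESCs and the 24 h titles add after KLF4 KO, so the titles do not settle whether KLF4 by itself or the trio was targeted. The 2 libraries at 0 h (replicates A and B) were uninduced and are labelled KLF wild type, and the 2 libraries at 24 h (replicates A and B) came after induction and are labelled KLF knockout. In both groups the cells grew on irradiated feeder cells in 15% serum with 1000 U/ml LIF, 1 µM of a MEK inhibitor and 3 µM of a GSK3 inhibitor. The lines were picked as clonal populations. Doxycycline, cutting by Cas9, any KLF protein loss and a further day in culture came together at 24 h and cannot be told apart.

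Many Platr genes were catalogued because their RNA is abundant in embryonic stem cells and declines as the cells differentiate. A Snhg transcript carries small nucleolar RNAs (snoRNAs) inside its introns or exons; splicing and trimming release the snoRNA, which guides chemical modification of ribosomal or spliceosomal RNA, while the spliced host RNA is often unstable. Malat1 is retained in nuclear speckles, and the long form of Neat1 is the scaffold of paraspeckles; the 3′ ends of both are cut by RNase P and protected by a triple helix in place of a poly(A) tail. Gm32585 is a gene model without an established function.

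The transcript ends of Malat1 and Neat1 are shown because the libraries were poly(A)-selected, and these RNAs end in stretches encoded in the genome. Both sequences were read from GENCODE M21 transcripts (GRCm38), 5′ to 3′, with the U-rich motifs and the A-rich tract in capitals. The Malat1 stretch lies at chr19:5795982-5796077 on the minus strand and holds 2 U-rich motifs, and the Neat1 stretch lies at chr19:5824708-5824770 on the minus strand and holds 1 in the 63 bases printed.
Malat1: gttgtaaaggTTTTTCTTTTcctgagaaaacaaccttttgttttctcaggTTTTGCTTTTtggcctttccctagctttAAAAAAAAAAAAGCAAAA
Neat1: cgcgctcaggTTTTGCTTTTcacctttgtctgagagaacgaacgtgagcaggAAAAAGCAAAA
The A-rich tract was the last sequence of the Neat1 model, whereas 292 bases followed it in the Malat1 model. The counts do not separate the short polyadenylated form of Neat1 from the long form.

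Promoters of the other members that passed the test described next are shown with every match to 4 motifs in capitals, searched on both strands: GGGNGTGG (the KLF motif), CACCC, ATGCAAAT (the octamer bound by OCT4) and GGGCGG (the GC box). A KLF motif can hold a CACCC box on its other strand, so these matches overlap. The sequences are from RefSeq (GRCm38.p6), 250 bases before to 50 after an annotated start. The Gm32585 window lies at chr5:125252358-125252657 on the minus strand, that of Platr6 at chr10:21847563-21847862 on the minus strand, and that of Snhg20 at chr11:117076533-117076832 on the plus strand. These starts are not the 5′ ends of the counted GENCODE models: the Gm32585 window is set on position 125252407, inside a minus-strand model whose 5′ end is 125272815, and the Platr6 window on position 21847612, upstream of a 5′ end at 21844851. RefSeq places another start for each of these genes, in windows not printed that hold no match.
Gm32585: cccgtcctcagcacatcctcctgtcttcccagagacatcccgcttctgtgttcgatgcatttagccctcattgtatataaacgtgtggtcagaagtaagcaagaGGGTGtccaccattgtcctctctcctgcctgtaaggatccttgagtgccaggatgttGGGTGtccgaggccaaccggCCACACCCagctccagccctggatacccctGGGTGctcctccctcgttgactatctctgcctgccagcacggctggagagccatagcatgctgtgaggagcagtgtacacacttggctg
Platr6: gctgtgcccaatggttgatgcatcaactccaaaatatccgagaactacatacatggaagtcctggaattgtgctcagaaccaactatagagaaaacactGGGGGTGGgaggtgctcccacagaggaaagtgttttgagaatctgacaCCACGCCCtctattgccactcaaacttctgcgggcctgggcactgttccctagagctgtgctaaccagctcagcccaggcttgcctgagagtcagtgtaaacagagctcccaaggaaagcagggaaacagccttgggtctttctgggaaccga
Snhg20: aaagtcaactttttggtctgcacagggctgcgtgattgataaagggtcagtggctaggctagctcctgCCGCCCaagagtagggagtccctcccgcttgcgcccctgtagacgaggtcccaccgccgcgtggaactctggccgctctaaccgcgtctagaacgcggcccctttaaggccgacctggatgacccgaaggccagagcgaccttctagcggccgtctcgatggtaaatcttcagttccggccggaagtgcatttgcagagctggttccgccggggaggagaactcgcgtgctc
The Gm32585 window held 4 CACCC matches, 1 of them inside its KLF motif match, and the Platr6 window held 2 KLF motif matches. The Snhg20 window held 1 GC box and no KLF motif match. Of all 32851 promoters in the RefSeq table, 17.62% held the KLF motif and 57.52% held CACCC, so both are common in windows of this length.

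Snhg20 and Snhg5 are shown with an RNA they host. The Snhg20 span contains Gm26083, a small Cajal body RNA gene, at chr11:117077243-117077435 on the plus strand, and the Snhg5 span contains Snord50a at chr9:88521529-88521600 on the minus strand. Capitals mark the ACA box of the former and the C and D boxes of the latter.
Gm26083: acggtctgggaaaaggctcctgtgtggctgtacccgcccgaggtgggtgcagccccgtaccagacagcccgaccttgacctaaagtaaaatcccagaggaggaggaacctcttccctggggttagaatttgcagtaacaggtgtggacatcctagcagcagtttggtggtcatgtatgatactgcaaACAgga
Snord50a: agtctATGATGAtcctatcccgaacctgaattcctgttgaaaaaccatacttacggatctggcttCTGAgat
Both small RNA genes had 0 counts in these libraries.

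Total counts were 52412844 and 48838606 at 0 h and 48599693 and 46031578 at 24 h, and the limit that a count of 0 allows was 0.0593 to 0.0641 CPM (read counts relative to the library total, scaled by TMM; 3 counts of the scaled total, counting error only). Replicate A at 0 h stood apart: its deviation from the mean of the libraries correlated with GC content across 17927 genes at r = 0.547, against -0.205 to -0.285 in the other 3 libraries, as a description across genes. Replicates differed by an SD of 0.327 (log2) at 0 h and 0.19 at 24 h. Klf4 was at 331 and 257 CPM at 0 h and at 244 and 236 CPM at 24 h (adjusted p = 0.223, edgeR with Benjamini-Hochberg adjustment). Klf5 had 431 and 294 CPM against 226 and 216 (adjusted p = 0.0567) and Klf2 had 232 and 124 CPM against 147 and 153 (adjusted p = 0.58). None of the 3 passed the test, and mRNA level need not report a cut made by Cas9. Stem cell marker RNA was abundant in every library, with 6233, 6093, 5409 and 5441 CPM summed over 10 markers. Of these, 3 fell (Utf1, Pou5f1 and Zfp42), where 2.65% of all genes did. The Pou5f1 and Zfp42 calls did not hold with either 24 h library left out. With the per-library trend in GC content and length removed, 7 of the 10 were called lower, where 14.2% of all genes were. Both 24 h libraries lay below both 0 h libraries in 7 of the 10 and above in 1, where 29.5% and 29.3% of all genes do. The 16 feeder fibroblast markers summed to 3619, 2948, 2855 and 2810 CPM; of 14 tested, 2 fell (Pdgfrb and Ccn2; 1 when 24 h replicate A was left out, 0 when 24 h replicate B was), and Lum was at 0 in 3 libraries. Most of the feeder sum came from Fn1 (2611, 2033, 2051 and 1988 CPM) and Sparc (784, 737, 626 and 642 CPM). The next, Col1a1, was at 59.6 to 90.1 CPM, and Dcn was under 0.12 CPM in every library. Primitive endoderm markers summed to 168 to 214 CPM (0 of 9 tested called), with Lama1 at 111 to 145 CPM. Trophectoderm markers summed to 158 to 208 CPM (1 of 8 rose), with Tfap2c at 115.5 to 161.9 CPM. Neuroectoderm markers summed to 77.7 to 93.1 CPM (1 of 7 rose, 2 fell). The part of RNA from feeder or other cells in the members' values was not tested. In bulk RNA, fewer cells of a type and less RNA per cell cannot be told apart.

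Of the 40 members, 37 had enough reads to be tested. Gm32585, Neat1 and Platr6 rose and Snhg20 fell, and the other 33 did not pass edgeR's quasi-likelihood test at a Benjamini-Hochberg adjusted p of 0.05. Over all 18005 genes tested, 6.8% were called, 4.15% as higher and 2.65% as lower at 24 h. Among the 1273 tested genes of long noncoding biotypes, 4.48% were called, 3.61% higher and 0.864% lower. A fold change here is the log2 difference of 24 h from 0 h, with its standard error (SE), and a level is in CPM unless it is said to be per kilobase.

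Gm32585 had the largest fold change of the 37. It is a noncoding gene (ENSMUSG00000105039) at chr5:125238314-125272815 on the minus strand (GRCm38), with 764 exon bases. Its level was 1.82 CPM in replicate A and 2.10 CPM in replicate B at 0 h, and 20.7 and 19.04 CPM at 24 h. The means were 1.96 ± 0.198 and 19.9 ± 1.19 CPM (SD, n = 2 libraries each), so both induced libraries stood far above both uninduced ones. The log2 fold change was 3.34 (SE 0.168, adjusted p = 0.00235 by edgeR). The call held under all 14 alternative settings, with log2 fold changes between 3.24 and 3.45. On its right, 4271 bases away, lies Scarb1, the receptor for high-density lipoprotein, at 170 and 123 CPM at 0 h and 133 and 127 CPM at 24 h. The 24 h values of Scarb1 lay between its 0 h values, with a log2 fold change of -0.17 (edgeR adjusted p = 0.517), and no tested gene overlapped Gm32585.

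Neat1 rose. It lies at chr19:5824708-5845478 on the minus strand, in a single exon block of 20771 bases. Its level was 35.0 and 43.6 CPM at 0 h and 85.4 and 91.1 CPM at 24 h, with means of 39.3 ± 6.07 and 88.3 ± 3.99 CPM (SD, n = 2 each). The groups did not overlap, and the log2 fold change was 1.17 (SE 0.135, edgeR adjusted p = 0.00802). The call held under all 14 alternative settings, with log2 fold changes between 0.97 and 1.33.

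Malat1, whose gene lies close to Neat1 at chr19:5795690-5802672, was at 138 and 205 CPM at 0 h and at 269 and 309 CPM at 24 h. Both 24 h libraries lay above both 0 h libraries, and the 0 h libraries differed from each other more than the 24 h libraries did. The log2 fold change was 0.75 (SE 0.186, edgeR adjusted p = 0.0597), just outside the threshold. Over the 14 alternatives its adjusted p ran from 1.07e-102 to 0.234, with a log2 fold change of 0.61 after the GC and length trend was removed (adjusted p = 0.00769). The ratio of Malat1 to Neat1 CPM was 3.94 and 4.70 at 0 h, against 3.14 and 3.39 at 24 h, so it was lower in both induced libraries. Frmd8, the nearest tested protein-coding gene on the right of the pair, had a log2 fold change of -0.06 and did not pass the test.

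Genes for the proteins of the structures these RNAs occupy gave no call in the main edgeR test, but some were called lower in other settings. None of 16 paraspeckle protein genes passed edgeR's test. At an unadjusted p of 0.05, 4 were lower and 0 higher, beside 12.6% and 13.2% of all genes. DESeq2 called 2 lower and limma voom 0. With the GC and length correction 7 of the 16 were called lower, where 14.2% of all genes were. With the replicate block 4 were, where 8.86% of all genes were. The paraspeckle proteins bind along Neat1: Nono was at 310 and 342 CPM against 319 and 323 CPM, and Sfpq at 347 and 273 CPM against 250 and 261 CPM. Both were chosen after their values were seen, as well-known members of the list. In order of p the list began with Rbm14, Smarca4, Hnrnpul1 and Dazap1, with log2 fold changes of -0.65, -0.51, -0.43 and -0.41 and adjusted p from 0.0642 to 0.174. None of 16 nuclear speckle protein genes passed either (1 lower at an unadjusted p of 0.05, 0 by DESeq2 and 0 by limma voom). With the GC and length correction 9 of these 16 were called lower, where 14.2% of all genes were. The splicing coactivator Srrm1 led that list at 1014 and 1025 CPM against 802 and 818 CPM (adjusted p = 0.0733).

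**Figure D1:**
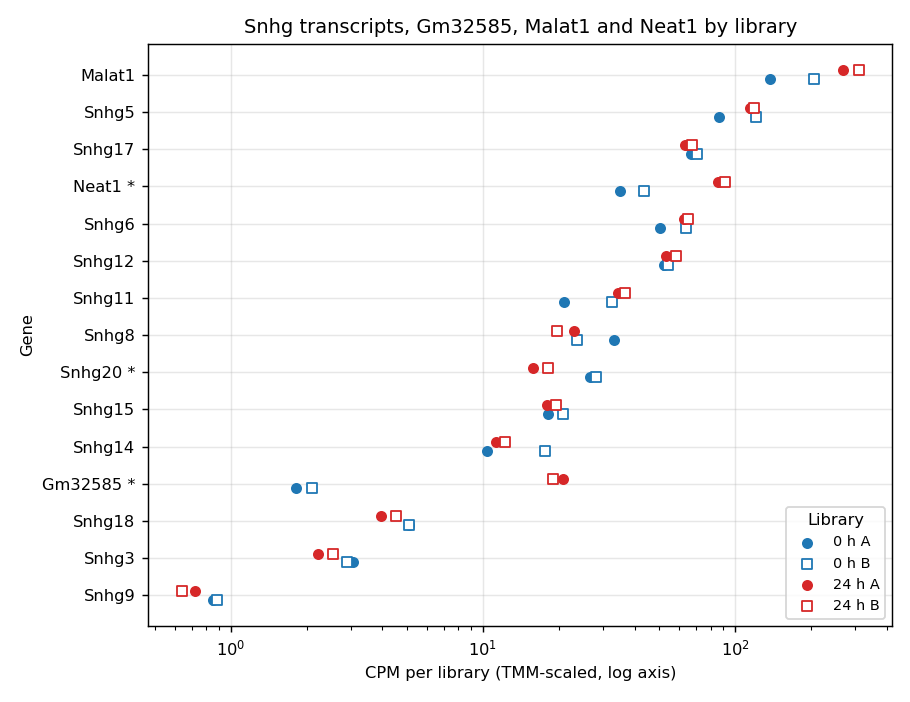
CPM of each Snhg gene and of Gm32585, Malat1 and Neat1 in each library, on a log axis; points are the 2 libraries of each time and an asterisk marks a gene past the test. Gm32585 goes from about 2 CPM to about 20 CPM, Snhg20 is lower in both 24 h libraries, and the 2 times overlap in 6 of the 12 Snhg genes.

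Among the Platr genes the 24 h libraries tended to be higher, with few calls. Of 22 tested, 1 rose and 0 fell by edgeR. At an unadjusted p of 0.05, 9 were higher and 2 lower, beside 13.2% and 12.6% of all genes and 15.0% and 5.3% of the long noncoding genes. Both 24 h libraries lay above both 0 h libraries in 14 of the 22, where 29.3% of all genes tested and 34.8% of the long noncoding genes do so. They lay below in 4, where 29.5% of all genes and 18.6% of the long noncoding genes do, and the groups overlapped in the other 4. Of 16 with a mean of at least 1 CPM, 11 lay above and 2 below, and of 6 under 1 CPM, 3 and 2. A gene near the filter minimum can enter the test through the group where it is higher. Among genes with GC content within the Platr quartiles, 37.8% lay above and 19.8% below. In the list of other stem cell and developmental long noncoding RNAs below, 11 of 16 lay above and 3 below, so this was not particular to Platr genes. The median log2 fold change was 0.59, against -0.01 over all genes tested and 0.16 over long noncoding genes. Replicate A at 0 h moves with this: it was the lower 0 h library in 15 of the 22. It was so in 8267 of the 18005 genes tested and in 784 of the 1273 long noncoding genes. The log2 difference of replicate B from replicate A at 0 h had a median of 0.35 over the 22 and -0.04 over all genes. That median was 0.16 over long noncoding genes and 0.15 over genes with GC content within the Platr quartiles. The 22 genes have a median GC content of 46.2%, against 49.9% over all genes. Without replicate A at 0 h the Platr median log2 fold change was 0.42, and without replicate B at 0 h it was 0.72. Removing the GC and length trend gave 0.54. Summed over all 25 Platr genes, the levels were 248 and 329 CPM at 0 h and 382 and 407 CPM at 24 h.

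Platr6 was the Platr gene that passed the test. It is at chr10:21830499-21844851 on the minus strand. Its level was 1.74 and 1.56 CPM at 0 h and 3.44 and 4.00 CPM at 24 h (means 1.65 ± 0.124 and 3.72 ± 0.392 CPM, SD, n = 2 each), with no overlap between groups. The log2 fold change was 1.17 (SE 0.211, edgeR adjusted p = 0.0253). The call was lost without replicate B at 24 h (adjusted p = 0.118). Its neighbours did not pass the test: Sgk1, a kinase gene 37330 bases away, was at 312 and 327 CPM against 266 and 273 CPM, and 1700020N01Rik stayed under 1 CPM in every library. The direction of Sgk1 was the opposite of that of Platr6, with a log2 fold change of -0.25 (adjusted p = 0.163).

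The most abundant Platr RNA was Platr14, at 119 and 160 CPM at 0 h and 173 and 188 CPM at 24 h (log2 fold change 0.37, edgeR adjusted p = 0.179). Platr10, the next, was at 50.2 and 72.8 CPM against 92.8 and 98.4 CPM (0.64, adjusted p = 0.0778). Platr3 was at 17.2 and 26.1 CPM against 36.6 and 40.1 CPM (0.83, adjusted p = 0.0548). In each of these 3 both 24 h libraries were the highest, replicate A at 0 h was the lowest, and the test was not passed. The ratio of Platr3 to Platr14 was 0.144 and 0.163 at 0 h, against 0.212 and 0.213 at 24 h, so within each library the 2 RNAs did not keep one proportion. Platr4 was at 11.8 and 17.3 CPM against 18.4 and 18.8 CPM, with replicate B at 0 h close to the 24 h libraries. Platr27 overlapped between groups, at 10.6 and 9.79 CPM against 9.94 and 10.4 CPM. Per kilobase of exon, Platr14 was the highest of all members, at 75.5 and 101 CPM per kilobase at 0 h and 110 and 119 at 24 h, and Platr3, with 412 exon bases, came to 41.6 and 63.3 at 0 h and 89.0 and 97.5 at 24 h.

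Between 5 and 8 CPM on average stood Platr7, Platr21, Platr17, Platr11 and Platr26. Platr17 was at 4.76 and 4.38 CPM against 6.40 and 7.27 CPM (log2 fold change 0.58, edgeR adjusted p = 0.0917), and Platr26 at 4.47 and 3.66 CPM against 5.80 and 7.48 CPM (0.71, adjusted p = 0.0888). In both genes replicate A at 0 h was above replicate B, and both 24 h libraries were above both. Platr7 was at 6.94 and 6.56 CPM against 10 and 7.59 CPM, and Platr21, an X-linked gene, at 4.74 and 6.05 CPM against 6.46 and 5.96 CPM. Platr11 went the other way, at 6.19 and 7.33 CPM against 4.27 and 4.57 CPM (-0.61, adjusted p = 0.087). Platr28 did so as well, at 3.46 and 3.79 CPM against 2.35 and 1.97 CPM (-0.74, adjusted p = 0.0801), and its value is given after it was seen. Both genes lay lower in both 24 h libraries without passing the test.

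Calls among the Platr genes differed between settings. With the per-library GC and length trend removed, 8 Platr genes were called higher (Platr3, Platr6, Platr10, Platr14, Platr17, Platr20, Platr22 and Platr26) and 2 lower (Platr11 and Platr28), where 25.7% of all genes were called, 11.6% as higher and 14.2% as lower. DESeq2 called 4 higher (Platr3, Platr6, Platr10 and Platr26) and 0 lower, where it called 11.1% of all genes, 5.76% as higher and 5.32% as lower. A fit with the letters A and B as a replicate block called the same 8 higher and 2 lower as the GC and length correction, where 18.1% of all genes were called (9.21% higher, 8.86% lower); the letters are not stated to mark a shared clone or day. Without replicate A at 0 h, 9 of 23 tested were called higher (those 8 and Platr7) and the same 2 lower, where 32.2% of all genes were called (16.5% higher, 15.8% lower). Without replicate B at 0 h, 15 were called higher and 2 lower, where 50.2% of all genes were called (23.2% higher, 27.0% lower). Without replicate A at 24 h the Platr median log2 fold change was 0.41, and without replicate B at 24 h it was 0.49. Far fewer of all genes were called in these fits, as given at the end, and Platr6 was the only Platr gene called in either.

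The lowest Platr genes gave no call. The 6 tested genes with a mean under 1 CPM had log2 fold changes from -0.61 to 1.66 and gave 0 calls by edgeR (1 higher at an unadjusted p of 0.05). That gene, named here for that reason and outside the naming rule, was Platr22, with 0.198 and 0.370 CPM against 1.01 and 0.791 CPM; it was called higher with no filter, with the replicate block and with the GC and length correction. Platr1, Platr19 and Platr31 were not tested, with 23, 20 and 11 reads in all. Some members share bases with other genes, and the strand setting of the counting is not given: Platr9 overlaps Cga on the other strand by 305 exon bases, Platr31 overlaps Tigar on the other strand by 122, and Platr16 overlaps Gm13230 on the same strand by 290. Platr32 lies within the span of Alpk3, a gene called higher at 24 h, with no exon bases in common. Values of these 4 are uncertain for that reason.

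**Figure D2:**
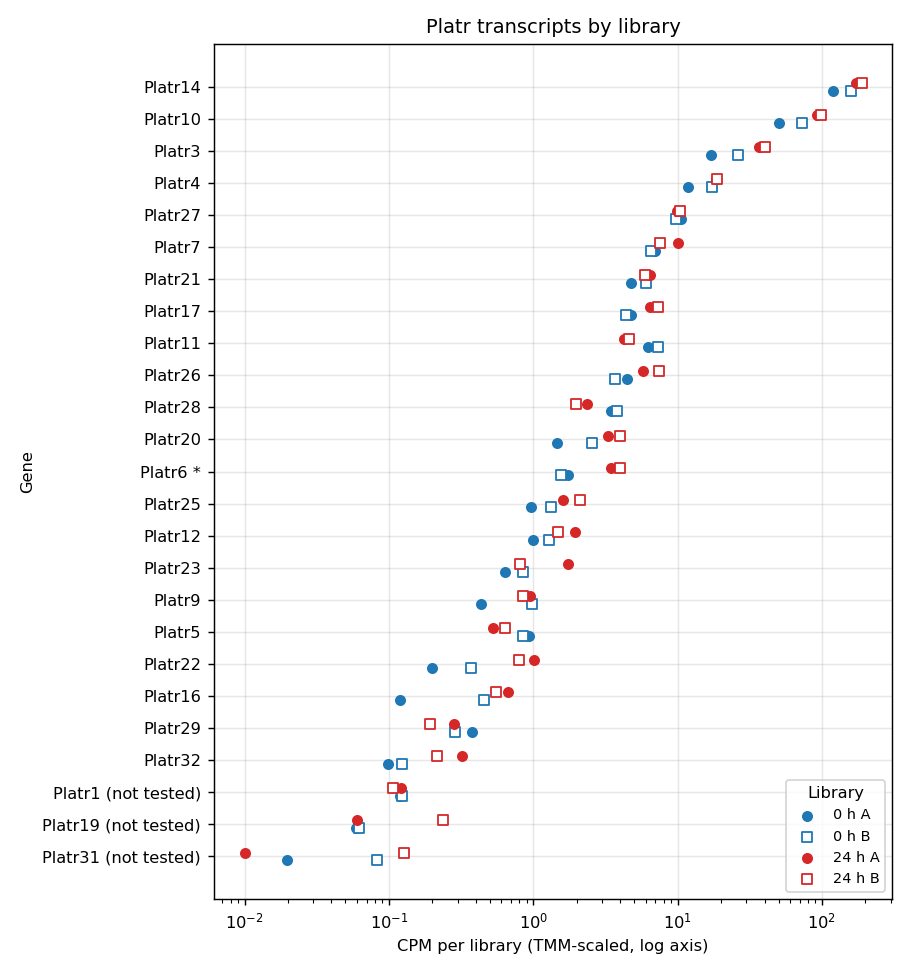
CPM of the Platr genes in each library, on a log axis, ordered by mean level; points are the 2 libraries of each time, a level of 0 is drawn at 0.01 CPM, and an asterisk marks the gene past the test. Levels run from above 100 CPM for Platr14 to under 0.2 CPM, and the 24 h points lie to the right of the 0 h points in most of the abundant genes.

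Among the Snhg genes 1 call was made. Of 12 tested, 0 rose and 1 fell by edgeR, where 4.15% and 2.65% of all genes did. At an unadjusted p of 0.05, 0 were higher and 1 lower. Beside these stand 13.2% and 12.6% of all genes and 15.0% and 5.3% of the long noncoding genes. DESeq2 gave 0 higher and 1 lower, where it called 5.76% and 5.32% of all genes. The 24 h libraries lay below the 0 h libraries in 5, above in 1 and overlapped them in 6. Of all genes tested 29.5% lay below and 29.3% above, and of the long noncoding genes 18.6% and 34.8%. The median log2 fold change was -0.16. Summed levels were 373 and 441 CPM at 0 h and 403 and 424 CPM at 24 h, with both 24 h sums between the 0 h sums.

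Snhg20 was the member that fell. It is at chr11:117076008-117078955 on the plus strand and overlaps no tested gene. Its level was 26.6 and 28.2 CPM at 0 h and 15.8 and 18.1 CPM at 24 h (means 27.4 ± 1.08 and 17.0 ± 1.66 CPM, SD, n = 2 each). Neither 24 h library reached the 0 h level, and the log2 fold change was -0.69 (SE 0.133, edgeR adjusted p = 0.0299). The call was lost without replicate A at 24 h (adjusted p = 0.357) and without replicate B at 24 h (adjusted p = 0.162). Set against Snhg17 in the same libraries, the ratio of Snhg20 was 0.399 and 0.400 at 0 h, against 0.249 and 0.268 at 24 h. On its right, 36210 bases away, Sec14l1, a gene for a SEC14-like lipid-binding protein, fell as well, from 200 and 171 CPM to 132 and 129 CPM (log2 fold change -0.51, adjusted p = 0.0443; 0.384 and 0.494 without replicate A or B at 24 h). On its left, Mgat5b, a glycosyltransferase gene, was at 26.1 and 16.4 CPM against 20.5 and 19.9 CPM and did not pass the test.

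The 4 most abundant Snhg genes overlapped between groups. Snhg5, host of the box C/D RNAs Snord50a and Snord50b, was at 86.0 and 121 CPM at 0 h and 114 and 119 CPM at 24 h. Snhg17 was at 66.7 and 70.4 CPM against 63.4 and 67.6 CPM, and Snhg6, host of Snord87, at 50.2 and 63.9 CPM against 62.7 and 65.3 CPM. Snhg12, whose span holds 5 snoRNA entries with overlapping ones both named Snora16a, was at 52.3 and 54.0 CPM against 53.3 and 58.2 CPM. Log2 fold changes of these 4 lay between -0.07 and 0.17, with edgeR adjusted p from 0.482 to 0.729. Snhg15, host of Snora9, also overlapped, at 18.1 and 20.8 CPM against 18.0 and 19.5 CPM. Snhg14, the long host transcript of the Prader-Willi and Angelman region that runs antisense to Ube3a, was at 10.4 and 17.7 CPM against 11.2 and 12.2 CPM. Its replicate B at 0 h was the high value, and 1803 of its exon bases lie opposite Ube3a. With the GC and length correction Snhg14 was called lower (log2 fold change -0.47, edgeR adjusted p = 0.029), where 14.2% of all genes were.

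The remaining Snhg genes separated by group without passing the test. Snhg11 was the one with both 24 h libraries higher, at 20.9 and 32.4 CPM against 34.2 and 36.8 CPM (log2 fold change 0.41, edgeR adjusted p = 0.245). The replicate block called Snhg11 higher, where it called 9.21% of all genes higher. Snhg8, host of Snora24, was at 33.0 and 23.6 CPM against 22.9 and 19.7 CPM (-0.41, edgeR adjusted p = 0.212). The block together with the GC and length correction called Snhg11 higher and Snhg8 lower. Snhg18 was at 5.12 and 5.10 CPM against 3.96 and 4.53 CPM, and Snhg3, host of Snora73a and Snora73b, at 3.06 and 2.90 CPM against 2.21 and 2.54 CPM. Snhg9, named after its value was seen, was the lowest, at 0.850 and 0.885 CPM against 0.725 and 0.641 CPM. Snhg3 shares 135 exon bases with Rcc1 on the same strand and 705 with Gm17300 on the other, and Snhg9 shares 14 with Rps2 on the other strand, so their values are uncertain. Snhg16 is the RefSeq name of the gene that GENCODE M21 lists as 1810032O08Rik. It was not counted as a member and stood at 12.7 and 11.4 CPM against 8.88 and 9.74 CPM (-0.37, adjusted p = 0.172).

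**Figure D3:**
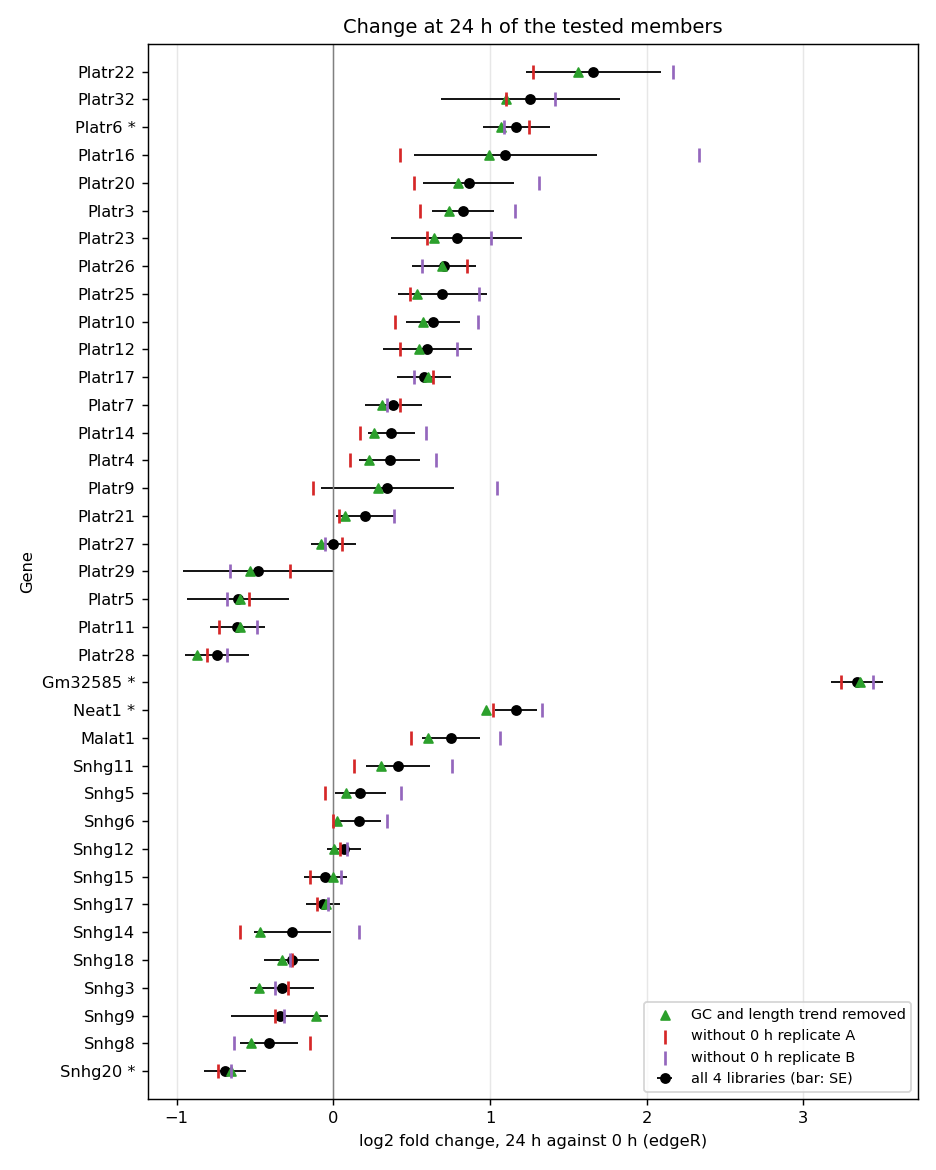
Log2 fold change of 24 h from 0 h for each tested member, with its standard error as a bar, the value with the GC and length trend removed as a triangle, and the values without 0 h replicate A or B as ticks. Gm32585 stands apart at 3.34, most Platr values lie above 0, and the Snhg values lie on both sides of 0.

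The RNAs hosted by the Snhg genes had few reads assigned to them. All 12 Snhg spans contain at least 1 annotated snoRNA or small Cajal body RNA on the same strand, and Snhg14 contains 208, which had 0 reads in all. The most reads over the 4 libraries were 180 for Snora78 inside Snhg9 and 131 for Snord87 inside Snhg6, followed by 13 over the 5 entries inside Snhg12. Outside Snhg14, 13 of 14 small RNA genes lying fully inside a host exon had 0 reads, with the overlapping Snora16a entries counted separately. Of those lying outside host exons, 4 of 5 had reads, 327 in all. Host exons here are merged over all annotated transcripts, so an intron of one transcript counts as exon where another transcript covers it. Snhg12, with 10 transcripts, formed 1 exon block. The counts therefore do not say which small RNA genes lie in introns of the spliced host. How the counting treated reads shared by a small RNA gene and its host exon is not given, the libraries were poly(A)-selected, and the part of either in these counts was not tested. The values are therefore not levels of the mature small RNAs.

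Genes listed as other hosts and partners were read next. Of 9 tested genes in a list drawn up as long noncoding snoRNA hosts outside the family name, 2 rose and 0 fell. Whether each of these genes hosts a snoRNA was not checked, so the list is not a set of established hosts. Of all genes tested 4.15% rose and 2.65% fell, and of the long noncoding genes 3.61% and 0.864%. Those that rose were the imprinted neighbours Meg3 and Rian. Meg3 was at 87.7 and 90.5 CPM against 140 and 146 CPM (log2 fold change 0.68, edgeR adjusted p = 0.0135). Rian was at 73.9 and 100 CPM against 153 and 155 CPM (0.82, edgeR adjusted p = 0.0272). Neither call held with either 24 h replicate left out. Without replicate A and without replicate B at 24 h, the log2 fold changes were 0.69 and 0.64 for Meg3 and 0.81 and 0.80 for Rian. Gas5 was at 317 and 401 CPM against 348 and 384 CPM, and Zfas1 at 75.4 and 106 CPM against 105 and 109 CPM; both overlapped between groups, and both are given after their values were seen. Of 30 protein-coding snoRNA hosts, 0 rose and 1 fell, the chaperone gene Hspa8, at 830 and 651 CPM against 412 and 411 CPM (-0.85, adjusted p = 0.0157). The median over these 30 was -0.02.

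None of 18 genes for snoRNP core and assembly proteins passed edgeR's test (2 lower at an unadjusted p of 0.05; 1 lower by DESeq2 and 0 by limma voom), and with the GC and length correction 4 were called lower. Fbl, the methyltransferase of box C/D particles, was at 19.6 and 9.34 CPM against 8.07 and 8.23 CPM, with replicate A at 0 h alone high. None of 15 genes for nonsense-mediated decay, the pathway that degrades many spliced host RNAs, passed either (1 higher and 3 lower at an unadjusted p of 0.05; 2 lower by DESeq2 and 0 by limma voom). With the GC and length correction 6 of the 15 were called lower and 1 higher, where 14.2% and 11.6% of all genes were. Upf1, the central helicase of the pathway, was at 264 and 173 CPM against 146 and 135 CPM (adjusted p = 0.0925).

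Other long noncoding RNAs known from stem cells and development gave calls in both directions. Of 16 tested, 2 rose and 1 fell, beside 3.61% and 0.864% of the long noncoding genes and 4.15% and 2.65% of all genes. Both 24 h libraries lay above both 0 h libraries in 11 of the 16 and below in 3, beside 34.8% and 18.6% of the long noncoding genes. The imprinted growth-restraining RNA H19 rose from 1.26 and 1.13 CPM to 5.80 and 4.91 CPM (log2 fold change 2.16, edgeR adjusted p = 0.00507), and Pvt1, the neighbour of Myc, rose from 9.07 and 11.8 CPM to 17.4 and 18.98 CPM (0.80, adjusted p = 0.0373). The Pvt1 call was lost without replicate A at 24 h (adjusted p = 0.105) and without replicate B at 24 h (0.238). Mir124a-1hg, the host of a neuronal microRNA, fell from 2.19 and 1.75 CPM to 0.423 and 0.256 CPM (-2.52, adjusted p = 0.0118). Sox2ot, which overlaps Sox2, was at 1.26 and 1.40 CPM against 2.35 and 2.59 CPM and did not pass (adjusted p = 0.0638).

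Protein-coding neighbours of the members gave 6 calls. Of 75 distinct nearest tested protein-coding genes, 2 rose and 4 fell, beside 4.15% and 2.65% of all genes. Leaving out replicate A of 24 h made these counts 1 and 2, and leaving out its replicate B made them 0 and 1. Leaving out either replicate of 0 h raised both counts, and it also raised the share of all genes called in each direction. Chosen after its values were seen, Plcb4, a phospholipase C gene 6947 bases from Platr3, rose from 34.9 and 48.3 CPM to 73.9 and 79.7 CPM (log2 fold change 0.88, edgeR adjusted p = 0.0272; 0.0749 without replicate B at 24 h), beside the 0.83 of Platr3. Chosen in the same way, Sema5a, an axon guidance gene whose span begins 147 bases from that of Snhg18 on the other strand, fell from 31.6 and 34.3 CPM to 23.3 and 22.6 CPM (-0.52, adjusted p = 0.0484; 0.417 and 0.536 without replicate A or B at 24 h), beside -0.27 for Snhg18. Snhg11, listed as protein-coding, counts here as the neighbour of Snhg17. The other calls, also named for having been called, were Sec14l1 beside Snhg20, Myo1g beside Snhg15 and Tnfrsf8 beside Platr16, which fell, and Fam49a beside the untested Platr19, which rose.

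**Figure D4:**
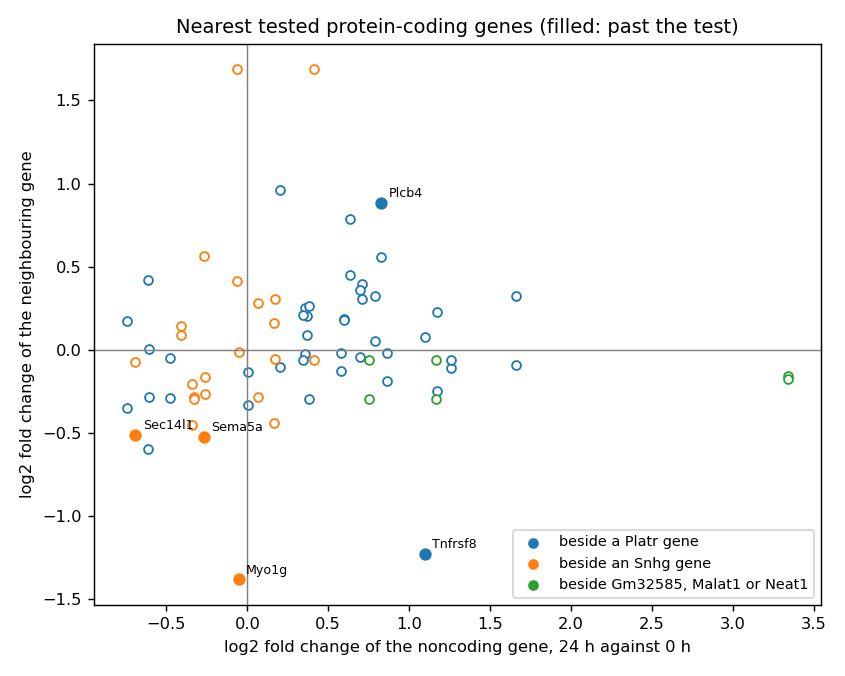
Log2 fold change of each tested member (horizontal axis) against that of its nearest tested protein-coding gene on each side (vertical axis); filled points are neighbours past the test, and their names are written. Neighbours of Gm32585, at the far right, lie near 0, and Plcb4 is the filled point above 0.

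Promoter windows were found in the RefSeq table for 11 Platr genes (13 windows), 11 Snhg genes (12 windows), Gm32585 and Malat1. The KLF motif was present in 4 of 13 Platr windows and 4 of 12 Snhg windows, beside 17.62% of all promoters. CACCC was in 8 of 13 and 4 of 12, beside 57.52%. The GC box was in 3 of 13 Platr windows and 7 of 12 Snhg windows, beside 35.66%, and the octamer in 1 of 13 and 0 of 12, beside 1.735%. A start at a C followed by at least 4 pyrimidines, the letters that open mRNAs of the translation machinery and of several snoRNA hosts, was found at Snhg8 and Platr3 and in 2.505% of all promoters. The first 30 bases of Snhg8 from that start (chr3, minus strand, position 123508336) are printed with the pyrimidine run in capitals.
Snhg8: CTCTTTggctgcgatccgcctacgagtatg
A match here is a match of letters in a window, and no binding was measured.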

How the data were processed

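Raw read counts per Ensembl gene were deposited by the authors for 4 poly(A) RNA libraries (stranded kit, single 50 nt reads, per the labels' protocols). TopHat2, HTSeq, DESeq and mm10 are named without versions, per the submitters' processing notes. Annotation release and strand option were not given in the sources used here. Symbols, spans and GC content came from GENCODE M21 (563 identifiers unmatched).

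Members and lists were chosen with earlier results of these data known. Genes passing filterByExpr (minimum count 10, minimum total 15) were compared with edgeR 4.0.16's 2-sided quasi-likelihood test (legacy=TRUE, TMM scaling) in R 4.3.3 and Benjamini-Hochberg adjusted over all 18005 at 0.05. CPM are TMM-scaled. The test was checked on simulated data. With 2 libraries per group, the p-values rest on spread pooled over genes; the labels call the libraries biological replicates. Alternatives were other scalings, filters, DESeq2 1.42.0, voom (limma 3.58.1), a replicate block, removal of a spline trend in GC and length, and leaving out each library.

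Genes named are the 3 single genes, members past the test, the 10 most abundant others of each family, up to 4 genes of each list in order of p, and neighbours of called members. Klf and marker genes are named as checks of the samples. Some genes this rule names are not reported here.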

Additional observations from a re-analysis of the deposited data

How the results depend on the processing

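Numbers of called genes, Platr genes and Snhg genes, in that order, were 1225, 1 and 1 in the test as reported. They were 1391, 2 and 1 with library totals only, 2589, 8 and 1 with no filter, 1994, 4 and 1 with DESeq2, and 4630, 10 and 2 with the GC and length correction. With the replicate block they were 3253, 10 and 2, and with the block and the GC and length correction 6139, 10 and 4. Leaving out 1 library at a time gave 506 to 9416 genes, 0 to 17 Platr genes and 0 to 5 Snhg genes. Omitting replicate A of 0 h gave 6040, 11 and 2, and omitting its replicate B gave 9416, 17 and 5. Omitting replicate A of 24 h gave 563, 1 and 0, and omitting its replicate B gave 506, 0 and 0. A single library then stands for its group and is assumed to vary like the other group. The cause of these differences was not tested. Other scalings, the 1 CPM filter and voom kept all 3 counts within 1.5 times.

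Same-letter libraries deviated together with a correlation of 0.137 over 18005 genes, for 2 pairs that the labels do not tie to a clone or day, so the letters are not taken to pair the samples.

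For the 25 named members, 275 of 350 values under alternatives kept their direction and side of the threshold, 61 newly passed it, 3 lost it and 11 changed sign. The sign changes were in log2 fold changes. Snhg15 had 0.003 with library totals and 0.005 with block and correction, and -0.152 to 0.048 with 1 library left out. Platr27 had -0.016 with no filter, -0.077 with the correction, -0.072 with block and correction, and -0.056 to 0.055 with 1 library left out (-0.046 lacking 24 h replicate B). With 1 library left out, Snhg5 ranged from -0.055 (lacking 0 h replicate A) to 0.433, Snhg14 from -0.597 to 0.166 (lacking 0 h replicate B) and Snhg12 from -0.011 (lacking 24 h replicate B) to 0.112. A count of 0 allows up to 0.0593 to 0.0641 CPM in these libraries, and a part of depth in the low Platr genes' calls was not tested.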
